A study of Schizosaccharomyces pombe with 29 samples.

Results

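Antisense long non-coding RNAs are transcripts annotated on the strand opposite a gene, and 694 of the 6986 features counted in this fission yeast series are of this kind. They were chosen by annotation alone, as features with a non-coding RNA identifier (1524 in all) whose common name or product in the deposited tables contains the word antisense. The common name carried the word for 635 of them and only the product for 59. A gene on the opposite strand was named for 641, covering 620 genes, and 53 had no such gene in their names. Product remarks call 102 a possible alternative untranslated region. The members of the class were compared across strains of Schizosaccharomyces pombe that differ in the C-terminal domain of Rpb1, the catalytic subunit of RNA polymerase II.

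The mutant groups were Y1F, S2A, S2A-S7A, ALT-P3A, ALT-S5A and ALT-P6A, each an h+ strain carrying a 29-heptad rpb1 allele marked with NatMX. T4A is a 29-heptad allele whose marker the labels do not give, and its libraries were re-analysed from an earlier record. They were sequenced on another instrument than those of ALT-S5A. Letters and numbers give the residue replaced, its place in the heptad and its replacement, and the labels do not expand ALT. WT18, with a wild-type domain of 18 heptads, had 2 new h+ NatMX libraries and 2 earlier libraries of an h- ade6 ura4-D18 leu1-32 strain made with another RNA isolation and library kit. WT29, with 29 wild-type heptads, was the control and came as set 2, named by the labels as control for T4A, the ALT alleles and WT18, and set 1, named for Y1F, S2A and S2A-S7A. Every group had 3 libraries except WT18 with 4. Cells were vegetative, in log phase, in rich YES medium at 30 °C. The labels list 1 strain number for each group other than WT18, whose new and earlier libraries are of different strains. No label says that libraries of a group came from separate cultures, so p-values measure the spread between these libraries.

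The C-terminal domain of Rpb1 is a tail of repeated heptads whose tyrosine, serines and threonine carry phosphates that are added and removed in turn through the transcription cycle. Phosphorylated repeats recruit factors for capping, elongation, chromatin modification, 3′ end formation and termination. Antisense RNAs in fission yeast arise from promoters inside or behind genes and from transcription that runs on from a convergent neighbour, and many are kept low by the nuclear exosome, by histone deacetylation and by histone chaperones.

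Libraries held 15243598 to 35763201 counts, and CPM is a count scaled to its library's total. The targeted gene rpb1 had 54.5 to 66.5 CPM in S2A and 176 to 188 CPM in S2A-S7A, against 154 to 174 CPM in WT29 set 1, and 49.6 to 106 CPM in T4A and the ALT alleles against 446 to 518 CPM in WT29 set 2. Y1F had 80.4 to 89.8 CPM of rpb1 and WT18 197 to 303 CPM. The control sets did not overlap for rpb1, so the size of a difference depends on the set. The amino acid changes themselves cannot be read from counts. Counts of 694 antisense RNAs made up 0.392% to 0.814% of a library, and 17 of them had no count in any library. In the mean of the WT29 set 1 libraries, the 133 antisense RNAs lying wholly inside their sense gene had a median of 7.06% of its counts per kb of annotated exon. Summed meiotic marker RNAs were at 17.2 to 29.9 CPM in WT18 and at 4.08 to 10.6 CPM in the other groups.

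The share of all counts that fell in antisense RNAs was highest in S2A among the mutants compared with set 1. It was 0.685%, 0.596% and 0.789% in S2A, 0.565%, 0.585% and 0.602% in S2A-S7A, and 0.392%, 0.439% and 0.478% in WT29 set 1. Neither S2A nor S2A-S7A overlapped set 1, while WT29 set 2, at 0.585%, 0.645% and 0.591%, lay among them. Y1F averaged 0.477% ± 0.0065 and T4A 0.488% ± 0.0476 (SD, n = 3 each). ALT-P3A averaged 0.674% ± 0.0207, ALT-S5A 0.599% ± 0.0579 and ALT-P6A 0.512% ± 0.0231, against 0.607% ± 0.0330 in WT29 set 2. The 4 WT18 libraries had 0.752%, 0.814%, 0.639% and 0.712%, and only 1 of them overlapped set 2. In these bulk samples, fewer cells that make an RNA and less of it per cell cannot be told apart. The shares weight abundant RNAs most, so each antisense RNA was also set against its own sense gene.

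For antisense RNAs with at least 50% of their length inside the sense gene, the antisense level was expressed as a percent of the sense level, both as CPM per kb of exon averaged over all libraries. It was below 4% for 125 RNAs, from 4% to 25% for 206 and over 25% for 223, and 140 had no such value. The averages include the mutant libraries, so a rise in an allele can place an RNA in a higher class. The classes are therefore not independent of the changes described with them. The middle class followed the alleles. Its median antisense level was 15.7%, 14.0% and 18.2% of sense in S2A and 11.8%, 12.2% and 12.0% in S2A-S7A, against 6.97%, 7.12% and 7.04% in WT29 set 1 and 7.30%, 7.85% and 7.13% in WT29 set 2. No S2A or S2A-S7A library overlapped a control library of either set. Y1F stood at 7.38% ± 0.134, T4A at 7.63% ± 0.052 and ALT-P6A at 7.68% ± 0.769, all near the controls, while ALT-P3A stood at 9.33% ± 0.038 and ALT-S5A at 9.71% ± 0.530 (SD, n = 3 each). WT18 divided, with 8.55% and 9.40% in the new libraries, above both sets, and 5.14% and 5.29% in the earlier ones, below both.

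The lowest class divided the groups mainly along another line. Its median was 2.78% ± 0.208 in ALT-P3A, 3.12% ± 0.970 in ALT-S5A and 1.86% ± 0.438 in ALT-P6A, with 1.95% ± 0.283 in WT29 set 2. In Y1F, S2A, S2A-S7A and T4A the group means lay between 0.460% and 0.836%, with 0.471% ± 0.112 in WT29 set 1. S2A was the highest of these, at 0.653%, 0.716% and 1.14%. Its libraries lay above those of set 1, at 0.417%, 0.396% and 0.600%, and below all of set 2. WT18 divided here too, with 1.55% and 2.02% in the new libraries and 0.592% and 0.579% in the earlier ones. The 125 RNAs thus separated the ALT alleles, set 2 and the new WT18 libraries from the other mutants, set 1 and the earlier WT18 libraries. Antisense RNAs scarce beside an abundant sense gene therefore differ between the control sets themselves, and their part in a comparison made across that divide was not tested. Each allele is given below against both sets, and the counts that rest on this class are marked.

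**Figure D1:**
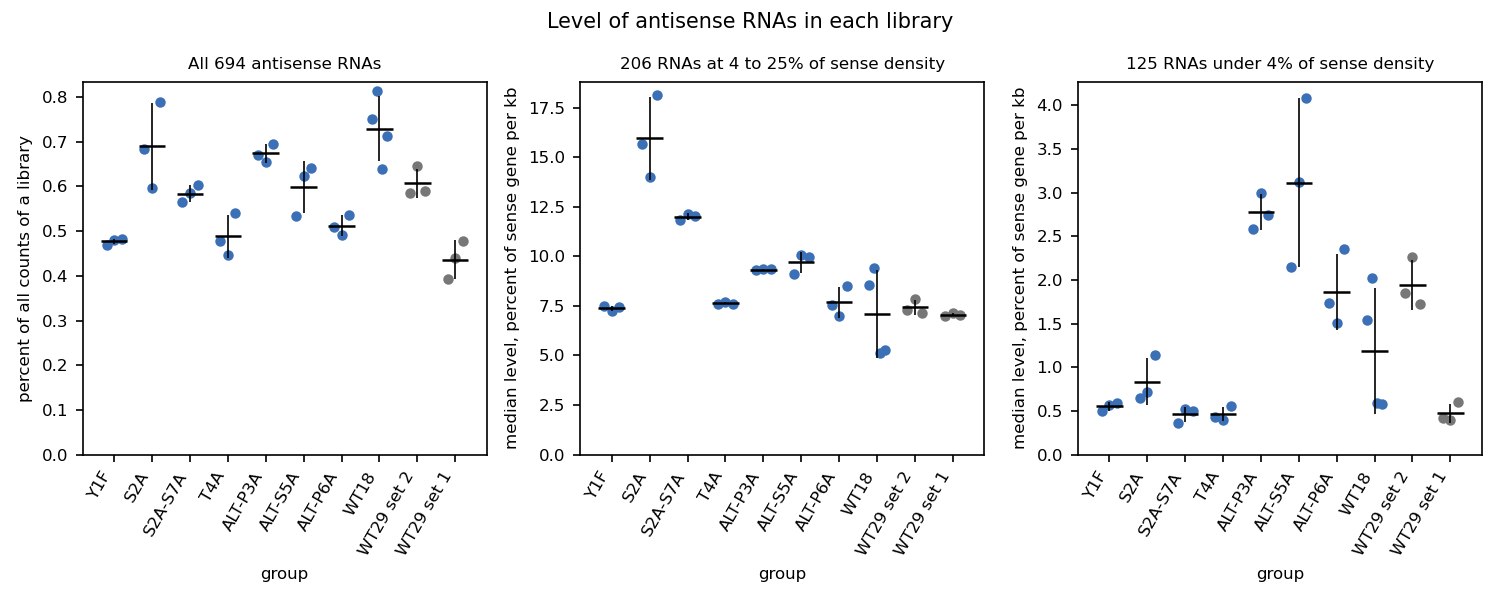
Points are single libraries by group (x axis), lines are group means and bars are ± SD. The panels plot the percent of all counts in 694 antisense RNAs, the median antisense level as a percent of the sense level per kb for the 206 RNAs of the middle class, and the same for the 125 RNAs of the lowest class. S2A and S2A-S7A stand above both WT29 sets in the middle class, while in the lowest class the ALT alleles, WT29 set 2 and the 2 new WT18 libraries stand above the rest.

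To find which antisense RNAs each allele changed, all genes were fitted with edgeR's quasi-likelihood test, and a gene was called when its Benjamini-Hochberg adjusted p was below 0.05 and its change at least 2-fold. Between 593 and 658 of the 694 passed the filter on low counts in a comparison with a control set. Some passed only through the group in which they were high, so the counts below describe the RNAs tested.

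S2A raised the most. Against set 1, 249 of 617 antisense RNAs tested were called higher and 55 lower in S2A, where 7.23% and 5.63% of all genes tested were called. Set against set 2, S2A had 203 of 654 higher and 122 lower, beside 7.11% and 7.42% of all genes. The median log2 fold change was 0.66 and 0.27 in the 2 comparisons, or 0.61 and 0.27 with no filter on low counts, while medians over all genes tested in the comparisons with the controls lay between -0.05 and 0.06. The other 830 non-coding RNAs of the annotation went the other way in S2A against set 1, with 33 of 372 higher, 100 lower and a median of -0.45.

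S2A-S7A, which lacks a serine at the seventh place as well, showed a smaller number. Against set 1 it had 189 of 610 higher and 63 lower, where 5.89% and 9.61% of all genes were called, and against set 2 it had 154 of 650 higher and 136 lower, beside 6.16% and 7.13%. The medians were 0.41 and 0.08. Called in the same direction against both sets were 177 higher and 36 lower of 616 RNAs in S2A (4.88% and 3.01% of all genes), and 120 higher and 38 lower of 607 in S2A-S7A (3.35% and 3.07%). Without the lowest class these became 163 and 30 in S2A, and 115 and 29 in S2A-S7A.

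Y1F and T4A moved antisense RNAs in both directions. Y1F had 98 of 607 higher and 62 lower than set 1 (4.68% and 5.11% of all genes) and 86 of 647 higher and 153 lower than set 2 (7.18% and 7.03%). T4A had 89 of 593 higher and 60 lower than set 1 (4.29% and 5.78%) and 66 of 634 higher and 165 lower than set 2 (5.27% and 7.89%). Of the RNAs lower than set 2, 72 in Y1F and 72 in T4A belonged to the lowest class. Calls shared by both sets were 51 higher and 31 lower of 603 in Y1F (2.98% and 2.09% of all genes) and 46 higher and 36 lower of 588 in T4A (2.48% and 2.7%).

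The ALT alleles changed few antisense RNAs relative to set 2, their own control by the labels. ALT-P3A had 48 of 657 higher and 12 lower (1.96% and 1.07% of all genes), ALT-S5A 60 of 658 higher and 38 lower (2.96% and 2.84%), and ALT-P6A 32 of 651 higher and 45 lower (3.12% and 3.23%). Set 1 gave larger numbers of higher calls, 196 of 656 in ALT-P3A (5.51% of all genes), 214 of 656 in ALT-S5A (6.18%) and 144 of 644 in ALT-P6A (4.84%), with 35, 50 and 59 lower (3.68%, 4.16% and 4.76%). The lowest class supplied 86, 92 and 67 of those higher calls. Against both sets, 24 of 653 were higher and 4 lower in ALT-P3A (0.842% and 0.297%), 37 of 654 and 19 in ALT-S5A (1.4% and 1.17%), and 11 of 641 and 22 in ALT-P6A (1.32% and 1.34%). At the same thresholds, the authors' deposited tables had 178, 194 and 138 antisense RNAs higher and 72, 86 and 105 lower in ALT-P3A, ALT-S5A and ALT-P6A. The control means of those tables could not be rebuilt from set 2 or from all libraries together, so these counts rest on a control that is not known here and cannot be set beside those above. Set 2 replicate 5 decided part of the ALT-P3A count: without it 78 antisense RNAs were higher than set 2 and 39 higher than both sets.

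The shorter wild-type domain of WT18 had 131 of 637 higher and 31 lower than set 1, and 100 of 655 higher and 86 lower than set 2. Over all genes the share called was large in this comparison, 15.6% higher and 8.96% lower against set 1 and 24.8% and 11.7% against set 2, so antisense RNAs were called higher no more often than genes at large against set 2. Shared by both sets were 63 higher and 6 lower of 633 (13% and 4.85%). Single libraries moved these counts, with 84 higher than set 1 without its replicate 2, 64 higher than set 2 without its replicate 4, and 11 lower than both without WT18 replicate 2. With the 2 new libraries alone, 235 were higher than set 1, 167 higher than set 2 and 123 higher than both. The new and the earlier WT18 libraries differed for several RNAs described below, and strain, RNA isolation and library kit differed between them.

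Part of any comparison with a single set is the difference between the sets. WT29 set 2 over set 1 gave 144 of 634 antisense RNAs higher and 37 lower, beside 5.03% and 3.86% of all genes, and 71 of the 144 were of the lowest class.

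**Figure D2:**
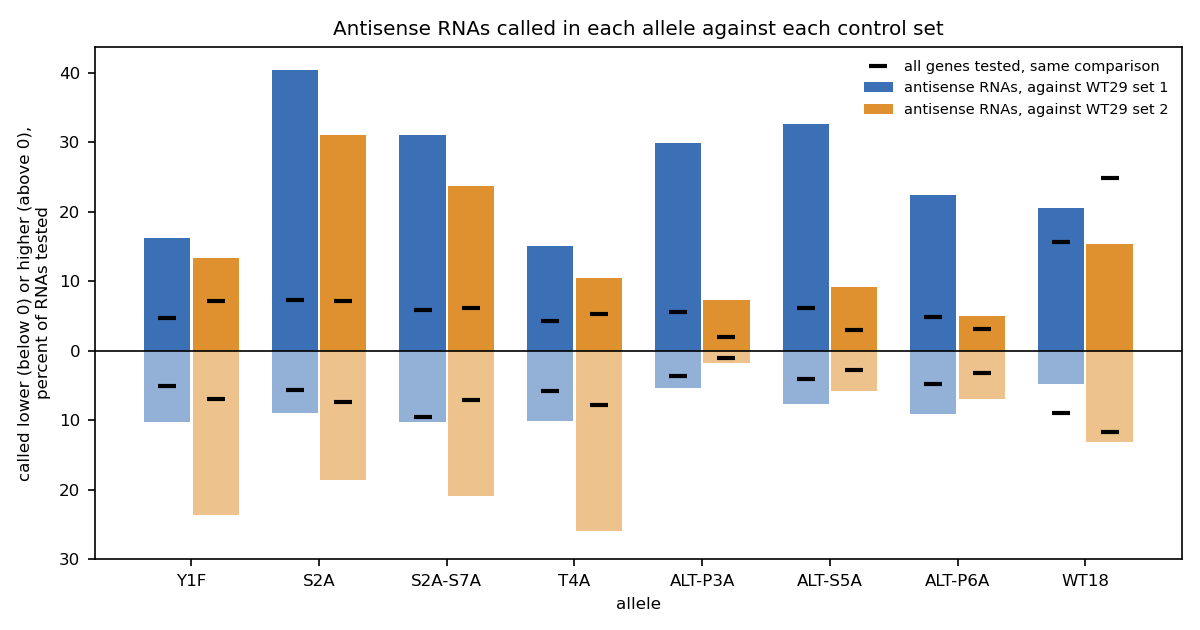
Bars give the percent of tested antisense RNAs called higher (up) or lower (down) in each allele (x axis) against WT29 set 1 in blue and set 2 in orange, and black dashes give the same percent over all genes tested. S2A reaches 40.4% higher against set 1 and 31% against set 2, above the dashes in both.

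The antisense RNA called higher in the most alleles was cwf28-antisense-1 (SPNCRNA.1653), which runs past the 5′ end of cwf28, a splicing factor gene. It had 50.6, 45.5 and 51.2 CPM in Y1F, 30.9, 24.4 and 26.9 in S2A, 45.8, 39.8 and 43.6 in S2A-S7A and 20.7, 28.5 and 20.8 in T4A. The ALT alleles had 16.6 to 19.2 CPM, and WT18 25.1, 21.2, 7.63 and 6, against 4.53, 4.80 and 5.38 in WT29 set 2 and 3.55, 3.35 and 2.90 in set 1. Every mutant and WT18 library lay above every control library, with no overlap. In T4A the log2 fold changes were 2.83 against set 1 and 2.20 against set 2, and those of the 3 ALT alleles lay from 2.42 to 2.51 and from 1.78 to 1.90. In WT18 they were 2.21 ± 0.56 (adjusted p = 0.00985, edgeR) and 1.64 ± 0.55 (adjusted p = 0.0267), carried mainly by the 2 new libraries. The sense gene cwf28 was called lower only in S2A-S7A against set 1, by -1.01, and higher in WT18, by 1.24 and 1.91. The product of cwf28-antisense-1 carries the remark of a possible alternative untranslated region. So do those of the antisense RNAs of ckk2, end4, cft2, SPAC1952.08c, rad2 and SPAC824.04 (swd22) described below.

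Several other RNAs were higher in the 4 alleles other than ALT than in the ALT alleles. SPCC1919.05-antisense-1 (SPNCRNA.1273) runs past the 5′ end of ski3, a subunit of the Ski complex that feeds mRNA to the cytoplasmic exosome. It had 53.9, 50.7 and 51.8 CPM in Y1F, 49.5, 47.9 and 39.3 in S2A, 34.3, 34.9 and 33.8 in S2A-S7A, and 95, 125 and 80.6 in T4A, against 4.08, 3.95 and 3.99 CPM in WT29 set 2 and 7.92, 8.41 and 5.37 in set 1. All 12 libraries lay above both sets. In T4A it rose by 3.79 ± 0.21 (adjusted p = 1.25e-06, edgeR) and 4.59 ± 0.18 (adjusted p = 2.25e-07) on the log2 scale relative to set 1 and set 2, and in ALT-P6A the values were -0.01 and 0.82. The sense gene ski3 lay between -0.57 and 0.48 in the mutant alleles. A second RNA, SPCC1919.05-antisense-2 (SPNCRNA.584), lies inside ski3 and was called higher against both sets in Y1F, S2A, S2A-S7A, T4A and ALT-S5A, most in S2A at 3.18 and 2.75.

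The antisense RNA inside orc1, which encodes a subunit of the origin recognition complex, was also highest in T4A. For orc1-antisense-1 (SPNCRNA.1529) the libraries had 18.9, 19.1 and 22.4 CPM in Y1F, 30.9, 28.5 and 25.5 in S2A, 44.1, 39.6 and 35.9 in S2A-S7A, and 65.0, 42.8 and 55.3 in T4A. ALT-P3A had 5.70, 4.91 and 4.83, and the controls 2.11, 3.36 and 2.83 in WT29 set 2 and 5.95, 4.59 and 3.90 in set 1. The first 4 alleles did not overlap the controls, whereas ALT-P3A overlapped set 1. T4A rose by 3.49 ± 0.21 and 4.24 ± 0.24 relative to set 1 and set 2 (adjusted p = 2.28e-06 and 1.47e-06, edgeR), and the sense gene moved by -0.35 to 0.57 in the mutants. WT18 divided, with 17.2 and 14.2 CPM in the new libraries and 1.92 and 3.29 in the earlier ones, and was not called.

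Another, ckk2-antisense-1 (SPNCRNA.1271), runs past the 5′ end of the kinase gene ckk2. Its log2 fold changes against set 1 and set 2 were 2.98 and 3.33 in Y1F, 2.40 and 2.72 in S2A, 2.48 and 2.83 in S2A-S7A and 2.50 and 2.83 in T4A, and from 0.81 to 1.67 in the ALT alleles. It was called higher against both sets in ALT-P3A and ALT-S5A too, and in ALT-P6A against set 2. WT18 had 62.5 and 41.7 CPM in the new libraries and 2.09 and 1.40 in the earlier ones, and was not called.

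The antisense RNA inside cph1, a PHD-finger subunit of a Clr6 histone deacetylase complex, separated the alleles in another way. The level of cph1-antisense-1 (SPNCRNA.687) was 57.1, 51.1 and 53.5 CPM in Y1F, 51.6, 60.9 and 49.8 in T4A, 27.1, 30.9 and 18.4 in S2A and 22.7, 21.2 and 21.7 in S2A-S7A. Among the ALT alleles it was 21.9, 21.3 and 23.6 in ALT-P3A, 9.81, 6.55 and 11.1 in ALT-S5A and 8.68, 7.17 and 8.35 in ALT-P6A, against 8.91, 9.71 and 9.08 in WT29 set 2 and 10, 9.95 and 10.1 in set 1. Thus ALT-P3A lay above both sets, and ALT-S5A overlapped both. The changes relative to set 2 were 2.50 ± 0.12 in Y1F (adjusted p = 1.14e-08, edgeR), 2.50 ± 0.15 in T4A (2.55e-06), 1.26 ± 0.13 in ALT-P3A (0.000177) and -0.06 ± 0.20 in ALT-S5A (0.85). Set directly against ALT-P6A, ALT-P3A was higher by 1.47 ± 0.10. The sense gene lay between -0.23 and 0.38 in the mutants.

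At guf1, the gene of a mitochondrial translation GTPase, a high antisense RNA stood opposite a strongly lowered sense gene in T4A. SPAC1B3.04c-antisense-2 (SPNCRNA.1037), which runs past the 5′ end of guf1, had 5.15, 4.67 and 6.62 CPM in T4A, against 0.352, 0.443 and 0.336 in WT29 set 2 and 0.432, 0.515 and 0.333 in set 1. The gene itself had 0.772, 0.364 and 0.529 CPM in T4A, against 9.11, 12.7 and 11.2 in WT29 set 2 and 9.60, 9.91 and 12.9 in set 1. Neither strand overlapped between T4A and the controls. Relative to set 2, the antisense RNA was higher by 3.78 ± 0.28 (adjusted p = 7.15e-06, edgeR) and guf1 lower, at -4.33 ± 0.29 (adjusted p = 4.03e-06). Y1F had a similar antisense level, at 4.55, 4.59 and 4.44 CPM, while guf1 stood at -1.65 there, and in S2A and S2A-S7A guf1 stood at -1.13 and -1.32. In ALT-S5A neither strand was called, and in WT18 the antisense RNA was called higher, by 2.50 and 2.68, while guf1 did not pass the test.

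**Figure D3:**
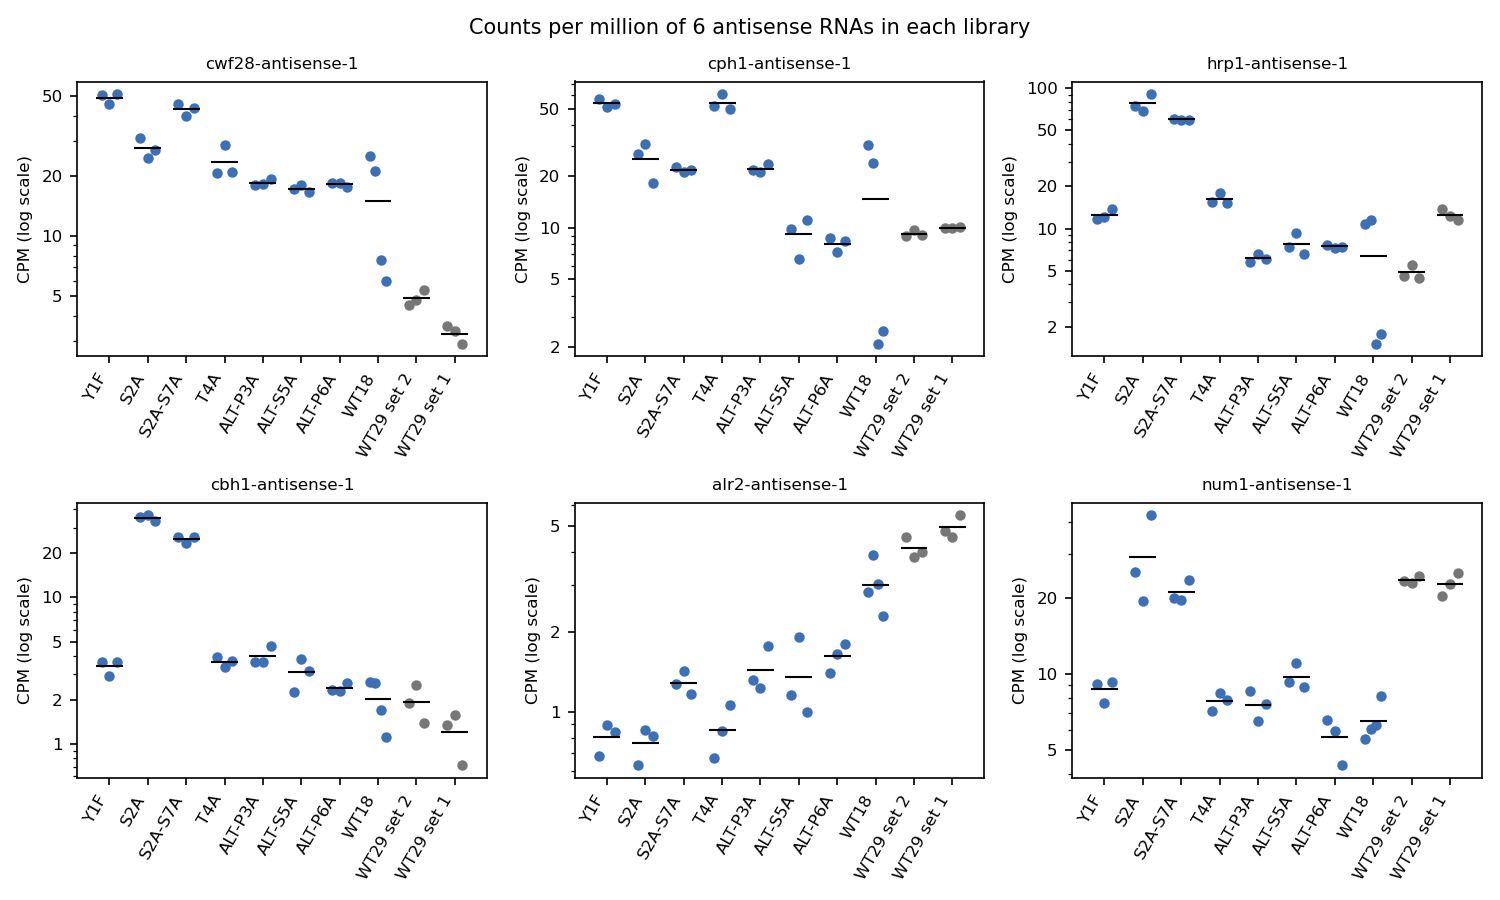
Points are CPM of single libraries (log axis) by group (x axis) for 6 antisense RNAs, and lines are group means. The antisense RNA of cwf28 lies above both WT29 sets in every mutant group, those of hrp1 and cbh1 are highest in S2A and S2A-S7A, and that of alr2 lies below both sets in every mutant allele.

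Another group of antisense RNAs was far higher in S2A and S2A-S7A than in Y1F and T4A. For cbh1-antisense-1 (SPNCRNA.990), which spans both ends of the CENP-B-like gene cbh1, S2A had 35.6, 36.3 and 33.2 CPM and S2A-S7A 25.8, 23.6 and 25.9, against 1.91, 2.51 and 1.39 in WT29 set 2 and 1.34, 1.59 and 0.713 in set 1. S2A and S2A-S7A lay far above every other library, since Y1F had 2.89 to 3.65 CPM and T4A 3.34 to 3.91. S2A rose by 4.83 ± 0.25 relative to set 1 (adjusted p = 1.06e-06, edgeR) and by 4.09 ± 0.23 relative to set 2 (adjusted p = 2.51e-06). The sense gene was at -0.02 and 0.22 in S2A and fell in S2A-S7A, at -0.85 and -0.58.

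A like pattern held for prp1-antisense-1 (SPNCRNA.1539), which runs past the 5′ end of prp1, a gene for a spliceosomal tri-snRNP subunit. It had 34.5, 30.8 and 41.1 CPM in S2A and 18.3, 17.2 and 14.9 in S2A-S7A, against 1.16, 1.07 and 1.63 in WT29 set 2 and 2.69, 2.06 and 2.94 in set 1. Both mutants lay above all control libraries, and S2A-S7A lay below S2A, at -1.05 ± 0.16 in the direct contrast. The gene prp1 fell in S2A-S7A, at -1.16 ± 0.21 relative to set 1 (adjusted p = 0.00201, edgeR) and -0.85 ± 0.19 relative to set 2 (adjusted p = 0.00373).

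The 40S ribosomal protein gene rps1501 carries SPCC1393.03-antisense-1 (SPNCRNA.581), whose position the annotation used here does not give. That RNA had 7.67, 13.5 and 13.6 CPM in S2A and 5.22, 7.84 and 7.03 in S2A-S7A, against 0.302, 0.812 and 0.529 in WT29 set 2 and 0.384, 0.172 and 0.950 in set 1. S2A was higher by 4.53 ± 0.45 than set 1 (adjusted p = 4.16e-05, edgeR) and by 4.29 ± 0.38 than set 2 (adjusted p = 2.76e-05). The sense gene was at -0.10 and -0.17.

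Opposite listed genes for antisense transcription, RNA decay and termination lie 13 of the antisense RNAs, and 6 of them were called higher against both sets in S2A. Among all antisense RNAs tested 177 of 616 were so called in S2A, beside 4.88% of all genes, and whether the 13 differ from the class was not tested. The 6 were the pair at ski3 and the RNA of cph1, described above, and those of hrp1, ski2 and hip1. The gene hrp1 encodes a CHD-type chromatin remodeller, and hrp1-antisense-1 (SPNCRNA.803) lies inside it. S2A had 74.7, 68.9 and 90.8 CPM and S2A-S7A 60.2, 59.7 and 59.8, against 4.58, 5.54 and 4.47 in WT29 set 2 and 13.7, 12.3 and 11.5 in set 1. Both lay above every control, Y1F with 11.7, 12.0 and 13.8 overlapped set 1, and the sets differed from each other by -1.31 ± 0.17 (set 2 over set 1). The rise in S2A was 2.63 ± 0.15 relative to set 1 (adjusted p = 1.74e-06, edgeR) and 3.93 ± 0.17 relative to set 2 (adjusted p = 7.84e-07). On the sense strand hrp1 had 19.6, 37.6 and 31.6 CPM in S2A-S7A, against 41.8, 70.1 and 56.9 in WT29 set 2 and 63.7, 64.0 and 85.5 in set 1. It fell there, at -1.24 ± 0.22 relative to set 1 (adjusted p = 0.00183) and -0.93 ± 0.21 relative to set 2 (adjusted p = 0.00363), without overlap with either set.

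The helicase gene ski2, of the same Ski complex as ski3, carries SPCC550.03c-antisense-1 (SPNCRNA.1178) past its 5′ end. That RNA had 34.1, 33.7 and 40.9 CPM in S2A and 23.8, 20.8 and 22.0 in S2A-S7A, against 3.93, 3.95 and 4.08 in WT29 set 2 and 8.83, 8.11 and 5.46 in set 1. Neither mutant overlapped the controls, and ski2 itself moved by -0.07 and -0.15 in S2A. For hip1-antisense-1 (SPNCRNA.1638), inside the HIRA histone chaperone gene hip1, the level was 4.29, 3.43 and 4.24 CPM in S2A, against 0.151, 0.332 and 0.240 in WT29 set 2 and 0.384, 0.772 and 0.475 in set 1, a rise of 3.90 ± 0.32 relative to set 2 and 2.84 ± 0.31 relative to set 1 (adjusted p = 1.81e-05 and 7.02e-05, edgeR). Among other antisense RNAs of listed genes, rhn1-antisense-1, opposite a termination factor gene, passed the test in no allele. hip3-antisense-1 (0.54 and -0.43) and cid14-antisense-1 (0.80 and -0.71) did not pass in S2A relative to set 1 and set 2. SPAC824.04-antisense-1, opposite swd22, did not pass relative to set 1, at 0.17, and was called lower than set 2, at -1.90. cft2-antisense-1 rose by less than 2-fold, as given below. pab2-antisense-1, opposite a nuclear poly(A) binding protein gene, rose by 0.73 and 0.52 in S2A and by 1.03 and 0.82 in ALT-S5A relative to set 1 and set 2. arb1-antisense-1, opposite a gene of the RNAi pathway, fell in S2A, at -0.61 and -1.01.

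Other antisense RNAs were called higher in both the serine and the ALT alleles. SPAC27E2.02-antisense-1 (SPNCRNA.955), inside yih1, was called higher against both sets in Y1F, S2A, S2A-S7A, ALT-P3A, ALT-S5A and ALT-P6A. It had 15.9, 18.1 and 15.5 CPM in S2A, against 2.52, 2.62 and 1.63 in WT29 set 2 and 2.45, 2.15 and 2.52 in set 1. In ALT-S5A the rise was 1.68 ± 0.20 relative to set 1 and 1.68 ± 0.22 relative to set 2 (adjusted p = 1.49e-05 and 0.000183, edgeR). In T4A its values of 0.62 and 0.64 were not called. SPAC637.04-antisense-1 (SPNCRNA.997), inside ypp1, and SPAP27G11.02-antisense-1 (SPNCRNA.748), past the 5′ end of mgr3, were each called higher in 6 alleles, T4A among them. Both are scarce: SPAC637.04-antisense-1 had 1.46 to 2.65 CPM in T4A, against 0.101 to 0.432 CPM in WT29 set 2 and 0.214 to 0.38 in set 1.

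The antisense RNA inside cyp1, a cyclophilin gene, was one of the largest rises in ALT-P6A. cyp1-antisense-1 (SPNCRNA.739) stood at 1.94 ± 0.29 and 1.77 ± 0.33 there (adjusted p = 0.000349 and 0.00222, edgeR), at 1.56 and 1.36 in ALT-S5A and at 1.48 and 1.31 in ALT-P3A. rad52-antisense-1 (SPNCRNA.711), opposite a recombination gene, rose by 1.65 ± 0.23 and 1.93 ± 0.21 in ALT-S5A (adjusted p = 6.58e-05 and 4.29e-05). SPAC1952.08c-antisense-1 rose by 1.80 ± 0.26 and 1.56 ± 0.23 in ALT-P3A (adjusted p = 9.18e-05 and 0.0014). SPBC651.02-antisense-1, inside nit1, rose by 1.45 ± 0.18 and 1.40 ± 0.23 in ALT-P6A. These rises in the ALT alleles held against both sets, and each was below 2 on the log2 scale.

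Counting alleles per antisense RNA, 442 of the 694 were called higher against both sets in none of the 8 groups, 109 in 1, 77 in 2 and 30 in 3. A further 16 were called in 4 groups, 10 in 5 and 9 in 6, and cwf28-antisense-1 alone was called in 8. Called higher in 1 or more groups were 36.3% of the antisense RNAs, beside 16.9% of all 6986 features, and in 2 or more 20.6% beside 4.59%. Calls lower against both sets were fewer, with 598 in none, 47 in 1 and 23 in 2, so that 13.8% were lower in 1 or more groups, beside 9.89% of all features, and 7.06% in 2 or more, beside 2.88%. Features not tested count as not called. The groups share their controls, so calls in several groups are not independent of each other.

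**Figure D4:**
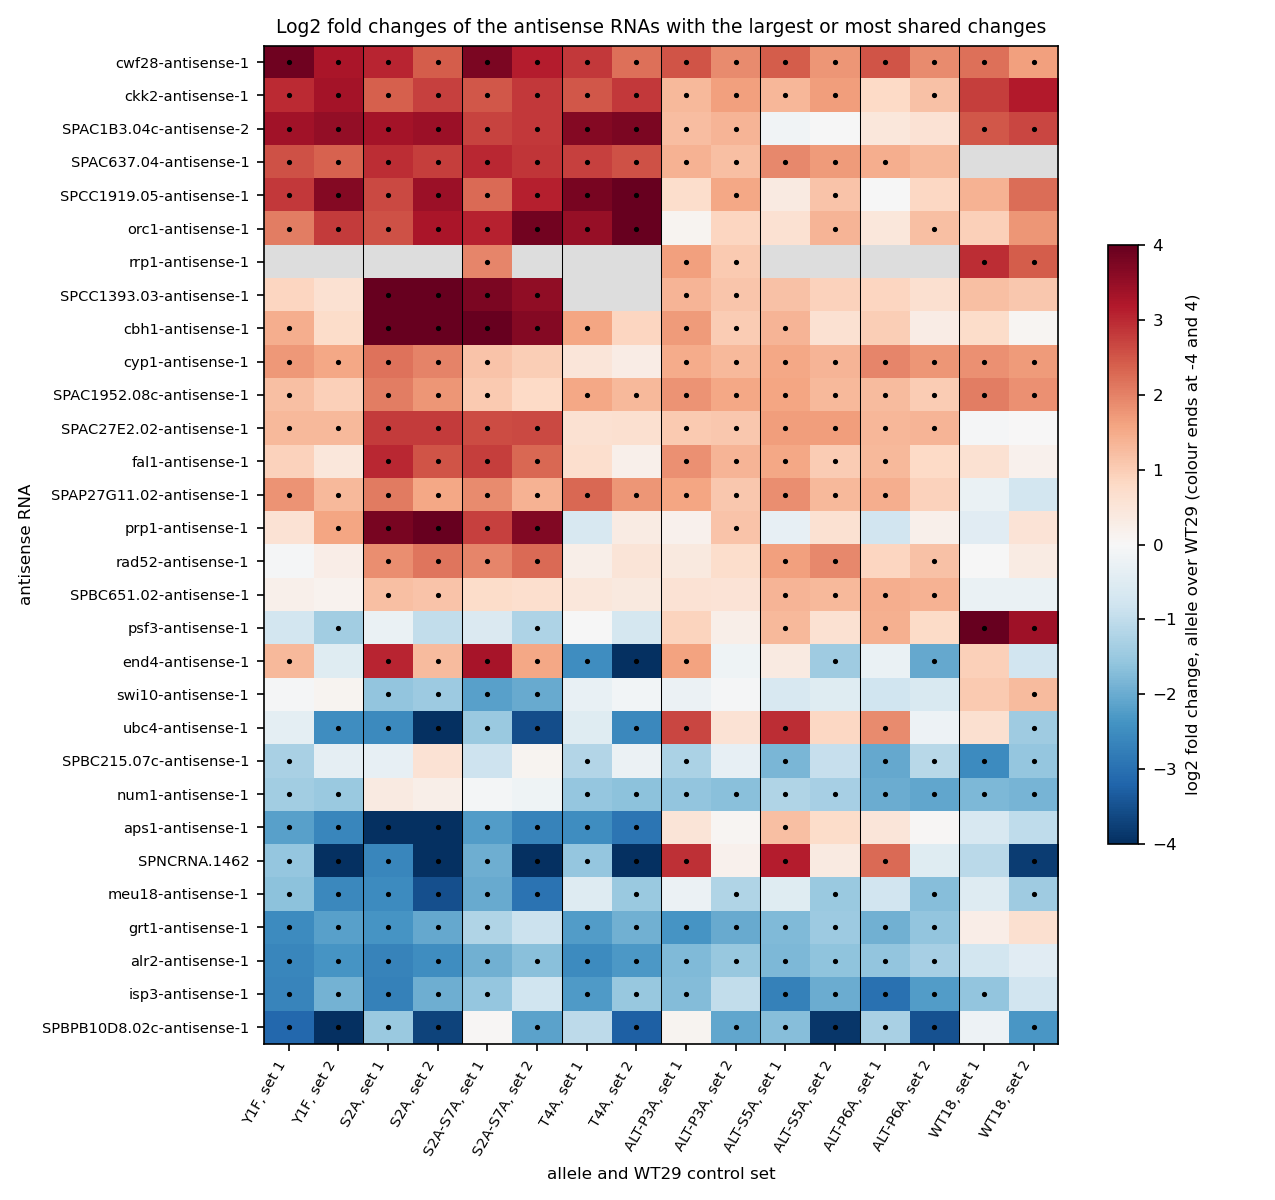
Rows are 30 antisense RNAs, columns are alleles against each WT29 set, and colour is the log2 fold change from -4 to 4, with dots for calls and grey where a gene was not tested. The antisense RNA of cwf28 is called in every column, and those of alr2, grt1 and isp3 are blue in nearly all mutant alleles.

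Among the antisense RNAs that fell, alr2-antisense-1 (SPNCRNA.1309) was called lower against both sets in all 7 mutant alleles. It runs past the 5′ end of alr2, an alanine racemase gene. It had 0.630 to 0.857 CPM in S2A, 0.686 to 0.894 in Y1F, 0.669 to 1.06 in T4A, 1.17 to 1.43 in S2A-S7A and 1.00 to 1.91 in the ALT alleles, against 4.53, 3.80 and 3.99 CPM in WT29 set 2 and 4.80, 4.55 and 5.46 in set 1. No mutant library reached a control, and WT18, with 2.82, 3.88, 3.01 and 2.28 CPM, overlapped set 2. In S2A it fell, with log2 fold changes of -2.68 ± 0.25 and -2.47 ± 0.25 relative to set 1 and set 2 (adjusted p = 3.17e-05 and 5.73e-05, edgeR). The sense gene fell with it, to 0.229, 0.107 and 0.477 CPM in S2A, against 2.32, 1.88 and 1.92 in WT29 set 2 and 4.61, 4.33 and 7.27 in set 1, at -2.91 ± 0.41 relative to set 2 and -4.26 ± 0.43 relative to set 1.

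Both strands also fell at grt1, the gene of a transcription factor. grt1-antisense-1 (SPNCRNA.1301) was called lower against both sets in Y1F, S2A, T4A and the ALT alleles, with -2.23 ± 0.37 and -1.91 ± 0.39 in T4A (adjusted p = 0.000974 and 0.00335, edgeR). On the sense strand grt1 had 0.206, 0.364 and 0.0441 CPM in T4A, against 5.79, 5.61 and 4.52 in WT29 set 2 and 5.13, 4.89 and 6.94 in set 1, at -4.81 ± 0.40 relative to set 2 and -4.86 ± 0.42 relative to set 1. WT18 lowered the gene but not its antisense RNA, which stood at 0.26 and 0.64 there. The antisense RNA of isp3, a spore wall gene, behaved alike, and isp3-antisense-1 (SPNCRNA.606) reached -2.99 and -2.23 in ALT-P6A, where its sense gene fell, at -1 and -0.47.

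The antisense RNA that spans num1, a cortical anchor for dynein, fell in every group but the serine 2 alleles. num1-antisense-1 (SPNCRNA.1397) had 9.16, 7.68 and 9.26 CPM in Y1F, 7.10, 8.37 and 7.89 in T4A, 6.56, 5.93 and 4.33 in ALT-P6A and 5.51, 6.02, 6.30 and 8.19 in WT18, against 23.5, 23.0 and 24.6 in WT29 set 2 and 20.4, 22.6 and 25 in set 1. S2A, with 25.4, 19.6 and 42.5, and S2A-S7A, with 20.1, 19.7 and 23.5, overlapped the controls, and all others lay below. ALT-P6A fell, at -2.08 ± 0.17 relative to set 2 (adjusted p = 2.39e-05, edgeR), and WT18 at -1.85 ± 0.17 (adjusted p = 0.000188), while S2A was at 0.24 ± 0.26 (adjusted p = 0.475). The difference between Y1F and S2A was tested directly and was -1.73 ± 0.24.

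SPBPB10D8.02c-antisense-1 (SPNCRNA.1307), opposite a predicted arylsulfatase gene, was lowest in Y1F. It had 0.196, 0.203 and 0.281 CPM in Y1F and 0.801, 0.750 and 0.620 in S2A, against 8.91, 9.20 and 8.75 in WT29 set 2 and 2.06, 2.57 and 1.38 in set 1. aps1-antisense-1 (SPNCRNA.620), opposite a nucleotide hydrolase gene, had 0.294 to 0.327 CPM in Y1F, 0 to 0.107 in S2A, 0.227 to 0.391 in S2A-S7A and 0.0607 to 0.353 in T4A, against 1.59 to 2.1 in WT29 set 2 and 0.816 to 2.28 in set 1. Its levels in the ALT alleles, 1.43 to 4.34 CPM, overlapped those of the controls. swi10-antisense-1 (SPNCRNA.1545) fell in S2A-S7A, at -2.18 ± 0.30 and -2 ± 0.32 relative to set 1 and set 2, and in S2A, at -1.59 and -1.44.

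A further RNA was lowest in Y1F. cft2-antisense-1 (SPNCRNA.1413) runs past the 5′ end of cft2, which encodes a subunit of the cleavage and polyadenylation complex. It had 2.11, 1.42 and 1.92 CPM in Y1F and 12.0, 12.2 and 15.5 in S2A, against 8.56, 8.05 and 9.18 in WT29 set 2 and 7.53, 8.41 and 8.98 in set 1. Y1F lay below and S2A above all controls. Y1F fell, at -2.29 ± 0.18 relative to set 2 and -2.21 ± 0.19 relative to set 1 (adjusted p = 6.92e-07 and 5.93e-07, edgeR), and S2A rose by 0.56 ± 0.18 and 0.66 ± 0.19 (adjusted p = 0.0327 and 0.0179). It was also called lower against both sets in ALT-S5A, at -1.55 and -1.44 relative to set 2 and set 1, and in ALT-P6A, at -1.90 and -1.83. T4A stood at -1.08 and -0.99, ALT-P3A at -0.75 and -0.68, WT18 at -1 and -0.97 and S2A-S7A at -0.25 and -0.17.

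At meu18, a gene of the meiotic up-regulated set, the strands moved opposite ways. meu18-antisense-1 (SPNCRNA.1417), which runs past the 3′ end of the gene, had 2.86, 2.04 and 2.38 CPM in S2A, against 25.4, 25.6 and 28.3 in WT29 set 2 and 13.2, 15.7 and 12.8 in set 1. The gene had 46.2, 50.5 and 51.9 CPM in S2A, against 15.8, 21.3 and 17.4 in WT29 set 2 and 19.8, 18.7 and 22.3 in set 1. S2A overlapped the controls on neither strand. The antisense RNA fell, at -3.51 ± 0.19 and -2.53 ± 0.21 relative to set 2 and set 1 (adjusted p = 2.26e-06 and 1.48e-05, edgeR) and the gene rose by 1.38 ± 0.15 and 1.28 ± 0.14 (adjusted p = 9.93e-05 and 6.1e-05). Y1F and S2A-S7A did the same, at -2.58 and -2.96 for the antisense RNA and 1.16 and 1.14 for the gene relative to set 2. In T4A the antisense RNA was at -1.49 relative to set 2, with the gene at 0.18, and at -0.52 relative to set 1, less than 2-fold, since set 2 was 0.97 above set 1.

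The antisense RNA of end4, an endocytosis gene, fell in T4A and rose in the serine alleles. end4-antisense-1 (SPNCRNA.888), running past the 3′ end, had 0.566, 0.789 and 0.353 CPM in T4A, 27.8, 30.4 and 20.2 in S2A and 32.9, 29.9 and 28.1 in S2A-S7A, against 9.61, 11.0 and 10.7 in WT29 set 2 and 2.93, 3.43 and 2.99 in set 1. T4A lay below both sets and both serine alleles above them, although set 2 itself was 1.79 above set 1. T4A fell, at -4.27 ± 0.27 and -2.49 ± 0.30 relative to set 2 and set 1 (adjusted p = 2.9e-06 and 0.000172, edgeR), while S2A rose by 1.25 ± 0.19 and 3.05 ± 0.21 (adjusted p = 0.000557 and 5.77e-06). On the sense strand end4 was at -0.31 and -0.39 in T4A.

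In WT18, pdp2 showed both strands moving apart. SPBC215.07c-antisense-1 (SPNCRNA.1658), which spans the gene, had 27.0, 31.7, 34.4 and 33.5 CPM in WT18, against 91.2, 87.0 and 100 in WT29 set 2 and 153, 179 and 211 in set 1. The gene had 64.7, 68.7, 71.0 and 87.8 CPM in WT18, against 9.71, 19.0 and 13.7 in WT29 set 2 and 21.1, 22.1 and 22.8 in set 1. New and earlier WT18 libraries lay on the same side of both sets on either strand. The antisense RNA stood at -1.54 ± 0.11 relative to set 2 (adjusted p = 0.000172, edgeR) and -2.52 ± 0.14 relative to set 1 (8.54e-05), and pdp2 at 2.37 ± 0.24 and 1.73 ± 0.13.

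A WT18 rise that passed the test, by contrast, rested on the new libraries. psf3-antisense-1 (SPNCRNA.659) had 34.2 and 33.8 CPM in them and 2.02 and 4.89 in the earlier WT18 libraries, against 1.96, 1.96 and 1.54 in WT29 set 2 and 1.2, 0.901 and 1.43 in set 1. Its log2 fold change was 3.40 ± 1.02 relative to set 2 (adjusted p = 0.0177, edgeR), with a large standard error. The antisense RNAs of ckk2, SPCC1919.05 (ski3), orc1, cph1 and hrp1 divided WT18 in the same way, with the 2 new libraries high and the earlier ones near or below the controls.

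Pairs of alleles were then compared directly. S2A-S7A over S2A gave 10 of 605 antisense RNAs higher and 58 lower, beside 1.45% and 2.46% of all genes, with a median of -0.25. Without replicate 3 of S2A-S7A the counts were 4 and 27, and without replicate 3 of S2A 32 were lower. The one with the largest rise was prl61 (SPNCRNA.61), opposite SPAC186.07c, with 7.80, 5.05 and 2.54 CPM in S2A-S7A against 0.172, 0.107 and 0.524 in S2A, a difference of 4.2 ± 0.58. WT29 set 1 had 16.6, 25 and 51.1 CPM of it and set 2 0.705, 0.332 and 0.336, so its level differed as much between the controls. The largest fall was gmh3-antisense-1 (SPNCRNA.1043), inside a galactosyltransferase gene, with 0.272, 0.297 and 0.195 CPM in S2A-S7A against 1.15, 1.87 and 1.43 in S2A, a difference of -2.51 ± 0.36. pck1-antisense-1 (SPNCRNA.818), past the 5′ end of a protein kinase C gene, had 2.54, 3.69 and 2.34 CPM in S2A-S7A against 11.2, 8.78 and 7.34 in S2A, a difference of -1.65 ± 0.25.

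Y1F over S2A gave 25 of 614 higher and 188 lower, where 4.01% and 5.53% of all genes were called, and a median of -0.52. The largest fall was pck1-antisense-1, at -4.50 ± 0.35, and among the RNAs named above cbh1-antisense-1 stood at -3.36 ± 0.16, prp1-antisense-1 at -3.17 ± 0.16 and hrp1-antisense-1 at -2.63 ± 0.13. The largest rise was SPCC330.19c-antisense-1, at 2.30 ± 0.45. T4A over ALT-S5A gave 35 of 654 higher and 194 lower (2.3% and 6.23% of all genes), and 91 of the 194 were of the lowest class. T4A was sequenced on another instrument than ALT-S5A, so allele and instrument cannot be told apart in this contrast. Its largest rise was SPAC1B3.04c-antisense-2, the guf1 antisense RNA, at 3.79 ± 0.31.

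ALT-P3A over ALT-P6A gave 41 of 657 higher and 4 lower (2.07% and 1.11% of all genes), with a median of 0.35. Without ALT-P6A replicate 3, 80 were higher. For the vacuolar sorting gene pep3, pep3-antisense-1 had 6.33, 5.11 and 4.98 CPM in ALT-P3A and 1.72, 1.05 and 1.16 in ALT-P6A, a difference of 2.06 ± 0.20. For the flap endonuclease gene rad2, rad2-antisense-1 differed the other way, with 3.96, 4.18 and 3.96 CPM in ALT-P3A and 12.4, 11.0 and 12.3 in ALT-P6A, or -1.56 ± 0.12. Neither pair of groups overlapped.

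ALT-P6A and ALT-S5A were close. Of 657 antisense RNAs, 0 were higher and 1 lower in ALT-P6A by edgeR's test, beside 0.0328% and 0.0328% of all genes, while 12 were higher and 181 lower at an unadjusted p below 0.05, and DESeq2's Wald test called 0 and 5. Same-numbered libraries of these groups deviated together, and with the replicate number as a block 0 were higher and 17 lower. Leaving out single libraries gave 0 or 1 higher (1 without ALT-S5A replicate 2) and 0 to 3 lower (0 without ALT-P6A replicate 2, 3 without ALT-S5A replicate 3). The 1 called was lid2-antisense-1 (SPNCRNA.1557), inside the gene of a JmjC-domain protein, with 7.56, 6.46 and 8.30 CPM in ALT-P6A against 20.5, 26.8 and 16.7 in ALT-S5A, a difference of -1.52 ± 0.18 (adjusted p = 0.00512).

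Position relative to the sense gene, which the choice of RNAs did not use, went with the response in S2A. Of 616 RNAs that overlap their sense gene on the opposite strand, 133 lie inside it, 263 run past its 5′ end, 101 run past its 3′ end and 119 span both ends. Relative to set 1, 77 of the 117 inside RNAs tested were called higher in S2A and 1 lower, a share of 65.8% higher with a median of 1.47. The numbers for the other positions were 92 and 33 of 239 past the 5′ end (median 0.61), 33 and 8 of 87 past the 3′ end (0.57) and 24 and 9 of 113 that span the gene (0.29). Relative to set 2 the inside RNAs had 66 higher and 13 lower of 127 (1.04) and the spanning ones 23 and 29 of 117. Inside RNAs also led in S2A-S7A, with 60 higher and 4 lower of 116 relative to set 1 (1.08) and 50 and 21 of 125 relative to set 2 (0.65). In Y1F relative to set 1 they had 35 higher and 9 lower of 110, against 11 and 12 of 114 for RNAs that span the gene, and relative to set 2 they had 25 higher and 29 lower of 122 (median 0.01), against 10 and 29 of 117. The difference between positions was not tested, and inside RNAs can share a sense gene.

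The kind of sense gene was also recorded, by words in its product. Over all antisense RNAs tested in S2A, 40.4% were higher and 8.91% lower relative to set 1, beside 7.23% and 5.63% of all genes. Relative to set 2 the shares were 31% and 18.7%, beside 7.11% and 7.42% of all genes. Whether any kind of gene differed from these shares was not tested. Antisense RNAs of signalling genes had 22 higher and 1 lower of 38 tested in S2A relative to set 1 (median 1.36) and 20 and 4 of 40 relative to set 2 (1.00). Those of meiosis, sporulation and mating genes had 8 and 4 of 39 relative to set 1 and 4 and 7 of 42 relative to set 2. Genes of the ribosome and translation carried 16 higher and 5 lower of 39 relative to set 1. Relative to set 2 they carried 15 and 16 of 47. In the same order of sets, transcription and chromatin genes carried 16 and 4 of 37 and then 11 and 7 of 40. Transport genes carried 9 and 1 of 23 and then 7 and 4 of 23. Genes called unknown carried 2 and 0 of 8 and then 4 and 0 of 8. All other genes carried 156 and 36 of 382 and then 127 and 74 of 402. Antisense RNAs remarked as possible alternative untranslated regions had 42 higher and 5 lower of 96 in S2A relative to set 1. That was close to the 207 and 50 of 521 without the remark. Other groups differed more in the shares higher relative to set 1, with and without the remark. These were 28.1% and 13.9% in Y1F, 41.5% and 29.1% in S2A-S7A and 28.9% and 19.1% in WT18. They were 35% and 29% in ALT-P3A, 16.8% and 14.7% in T4A, 23.2% and 22.2% in ALT-P6A and 31% and 32.9% in ALT-S5A. The difference was not tested.

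To ask whether sense genes changed where antisense RNAs rose, each pair was set side by side. Relative to set 1, 228 of 552 pairs in S2A had a higher antisense RNA, and among their sense genes 22 rose, 39 fell and 167 did not pass the test, with a median of -0.10 beside -0.08 over all pairs, in which 76 rose and 101 fell. At that adjusted p alone, 18.2% of all genes tested rose and 17.5% fell. Only 12 of these genes were lower by 2-fold or more and 5 higher. Across the 552 pairs the log2 fold changes of both strands had a correlation of 0.05, over genes and not over samples. Relative to set 2, 188 of 590 pairs had a higher antisense RNA, with 34 sense genes risen, 34 fallen and 120 that did not pass, while 21% of all genes rose and 24.7% fell.

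S2A-S7A differed in these numbers. Among 173 of 544 pairs with a higher antisense RNA relative to set 1, 21 sense genes rose, 95 fell and 57 did not pass, with a median of -0.40 beside -0.26 over all pairs, and 31 were lower by 2-fold or more. Over all 544 pairs 107 rose and 226 fell, and over all genes 29.4% rose and 31.1% fell. Relative to set 2, the 141 such pairs of 584 had 9 sense genes risen and 44 fallen, and a median of -0.22, beside 24.9% and 24% of all genes. The correlation across pairs was -0.14 with either set. Over all alleles and sets it lay between -0.23 and 0.22.

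**Figure D5:**
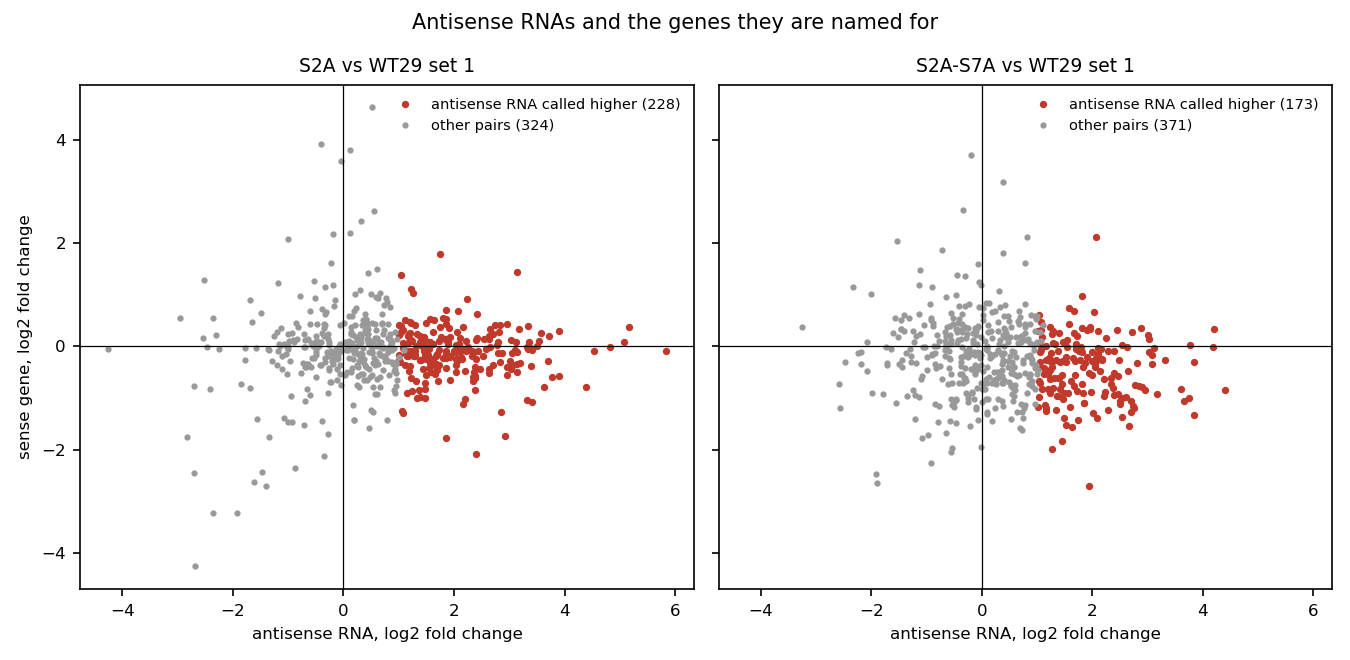
Each point is a pair, with the log2 fold change of the antisense RNA on the x axis and of its sense gene on the y axis, for S2A and S2A-S7A relative to WT29 set 1. Red points are the 228 and 173 pairs whose antisense RNA was called higher, of 552 and 544 pairs, and grey points the rest. Red points lie around 0 on the y axis in S2A and more often below it in S2A-S7A.

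RNAs for factors that limit or degrade antisense transcripts were counted from lists, as risen or fallen at an adjusted p below 0.05 and any fold change. Over all genes tested, 29.4% rose and 31.1% fell in S2A-S7A relative to set 1, and 24.9% and 24% relative to set 2. In S2A, 18.2% of all genes rose and 17.5% fell relative to set 1, and 21% and 24.7% relative to set 2. Whether a list differed from these shares was not tested. Of 17 genes of nuclear RNA elimination (exosome, MTREC and Mmi1), 1 rose and 10 fell in S2A-S7A relative to set 1 and 1 rose and 4 fell relative to set 2, while in S2A 1 rose and 2 fell relative to set 1 and 3 rose and 1 fell relative to set 2. The exosome nuclease gene rrp6 fell in S2A-S7A, at -1.11 ± 0.28 relative to set 1 (adjusted p = 0.00891, edgeR), and mmi1 fell at -0.49 ± 0.07 (0.000581). Relative to set 2 neither passed, with rrp6 at -0.48 ± 0.31 (adjusted p = 0.214) and mmi1 at -0.12 ± 0.09 (0.3). Of 19 genes for chromatin that limits antisense transcription, 2 rose and 11 fell in S2A-S7A relative to set 1 and 1 rose and 4 fell relative to set 2. Among them were set2, the histone H3 lysine methyltransferase gene, at -0.97 ± 0.18 (adjusted p = 0.00193), and spt6, a histone chaperone gene, at -0.51 ± 0.08 (0.00104), both relative to set 1. Relative to set 2, set2 fell, at -0.50 ± 0.16 (adjusted p = 0.0244), and spt6 did not pass, at 0.25 ± 0.10 (0.0502). In S2A, 0 of the 19 rose and 3 fell relative to set 1, and 4 rose and 2 fell relative to set 2. The other lists, each relative to set 1 and then set 2, gave in S2A-S7A 0 risen and 3 fallen and then 1 and 2 of 9 genes of cytoplasmic decay, 1 and 3 and then 1 and 2 of 8 of heterochromatin and RNAi, 3 and 6 and then 3 and 4 of 14 of termination, and 2 and 7 and then 0 and 2 of 11 of elongation. In S2A they gave 0 and 0 and then 2 and 1 for cytoplasmic decay, 3 and 1 and then 2 and 1 for heterochromatin, 2 and 2 and then 2 and 3 for termination, and 1 and 1 and then 2 and 1 for elongation.

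Last, some antisense RNAs differed widely between the control sets. tef103-antisense-1 (SPNCRNA.1376), inside a gene for a translation elongation factor, had 3.62, 4.32 and 2.83 CPM in ALT-P3A, 3.87, 3.71 and 9.84 in ALT-S5A and 2.37, 1.73 and 3.21 in ALT-P6A, against 3.77, 5.39 and 1.97 in WT29 set 2. It had no count in T4A or in WT29 set 1. cpc2-antisense-1 (SPNCRNA.826), opposite the gene of a ribosome-bound scaffold protein, had 8.00 to 47.9 CPM in the ALT alleles and 12.2 to 19.7 in WT29 set 2, against 0 to 0.144 in set 1. Both sense genes are highly expressed, and both RNAs belong to the lowest class. The ALT alleles overlapped set 2 for either RNA. SPAP8A3.07c-antisense-1 had 8.15 to 31.1 CPM in the ALT alleles and 17.2 to 22.8 in WT29 set 2, against 0 to 0.237 in set 1, and ubc4-antisense-1 and SPNCRNA.1462 were likewise higher in set 2 than in set 1, by 2.11 and 2.77. These were lower in some alleles against both sets as well. In S2A ubc4-antisense-1 was at -4.66 and -2.54 relative to set 2 and set 1 and SPNCRNA.1462 at -5.39 and -2.62, all called. S2A-S7A was called lower against both sets for either RNA, and Y1F and T4A for SPNCRNA.1462. The most abundant antisense RNA per kb with no sense gene in its name, SPNCRNA.1626, had 606, 611 and 683 CPM in S2A-S7A, against 304, 277 and 366 in WT29 set 2 and 134, 142 and 106 in set 1. It was higher in S2A-S7A by 1.01 and 2.35 relative to set 2 and set 1, and by 1.36 in set 2 over set 1. The abundant mug2-antisense-1, opposite a meiotic gene, had 138, 161 and 130 CPM in T4A, against 78.1, 67.2 and 76.5 in WT29 set 2 and 54.2, 49.0 and 42.0 in set 1, and the antisense RNAs of spo4 and bgs2 were not called in any mutant allele.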

How the data were processed

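Gene-level counts deposited by the authors were made, per the submitters' processing notes, with HISAT2 2.1.0, SAMtools and HTSeq 0.10.0 on ASM294v2, and whether counting used strand is not given in the sources used here. The authors' deposited tables also hold DESeq2 results (log2 fold changes, p-values and normalized mean signal), used here for names and for counts of calls. Set 2 is 1 record with 3 count columns (numbers 4 to 6), matched by elimination. The control means in the authors' deposited T4A, ALT and WT18 tables could not be rebuilt from these columns (median difference 23.2% to 23.3%) or from all libraries together (13.6%), so which libraries those tables used as control is not known here. All other means could be rebuilt.

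All counts were fitted together per comparison with edgeR 4.0.16 (R 4.3.3; filterByExpr, TMM, glmQLFTest), adjusting p over all genes tested, and DESeq2 1.42.0 was an alternative. Values after ± are SE for log2 fold changes and SD for levels. CPM divide a count by the library's total over genes kept by the filter, multiplied by its TMM factor from 1 fit of all groups. That factor ran from 0.8131 in T4A replicate 2 to 1.405 in WT18 replicate 2. On simulated counts for S2A against set 1 (6016 genes), 95.6% of 91 genes changed by 1.5 and 98.2% of 109 changed by 2 on the log2 scale were recovered, with 7 unchanged genes called.

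The members, lists and tests were chosen with earlier results of these data known. Named were, per allele, the 3 largest rises and 2 largest falls called against both sets with every library on 1 side, the RNAs called in the most alleles, the most abundant per kb, those opposite listed genes, those that differed most between sets and the extremes of direct contrasts. Sense partners and positions came from RefSeq annotation of ASM294v3, which matched 680 of the 694 (6833 of 6986 features); no coordinates or sequences are printed because that is not the build of the files.

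Libraries with the same replicate number deviated together in every pair only for S2A-S7A with S2A (r = 0.464, 0.115 and 0.198) and ALT-P6A with ALT-S5A (0.15, 0.234 and 0.236), from the data and not the labels.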

Additional observations from a re-analysis of the deposited data

Results flagged for a closer look

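In WT18, 1 library stood far from the other 3 for tef103-antisense-1 and for prl61. For tef103-antisense-1 (SPNCRNA.1376) the WT18 libraries had 0.132, 0.980, 0 and 0.0326 CPM, and the gap below the highest was 0.865 of the group's range. For prl61 (SPNCRNA.61) they had 0.353, 0.980, 0.308 and 0.359 CPM, and the gap was 0.924. The same new library was highest for both. Chance gives such a gap in about 1 in 20 groups, and both gaps are of a few counts. Every named antisense RNA was checked in this way in WT18, so chance alone would give some such gaps.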

How the results depend on the processing

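Of 60 counts of antisense RNAs, 34 of 340 values under other settings moved by more than 1.5 times, and 12 of 414 with single libraries left out. Of the calls of named antisense RNAs, 2371 values under other settings were unchanged, 74 lost the call and 0 reversed, and with libraries left out 3128, 155 and 0. Calls of sense genes were not checked in this way. Leaving out the 125 RNAs below 4% of the sense level was a step chosen after seeing the data, and the 140 RNAs with no such value stayed in. It gave against set 2 81 lower in Y1F, 67 in S2A, 71 in S2A-S7A, 93 in T4A and 45 in WT18. Higher than set 1 were 110 RNAs of ALT-P3A, 122 of ALT-S5A, 77 of ALT-P6A and 73 of set 2, and 103 lower in T4A over ALT-S5A. One fit of all groups gave ALT-P3A 29 higher than set 2 and 14 higher than both. The new WT18 libraries alone gave 235, 167 and 123 higher (set 1, set 2, both), and the earlier ones alone 83, 145 and 40 lower. DESeq2's Wald test gave 15 higher than both sets in ALT-P3A and 5 lower in ALT-P6A over ALT-S5A. Set against the mean of the control sets in place of both, the counts were 79 higher and 98 lower in Y1F, 85 lower in S2A, 104 lower in S2A-S7A, 116 lower in T4A, 140 and 14 for ALT-P3A, 173 and 37 for ALT-S5A, 79 and 46 for ALT-P6A, and 131 and 51 for WT18. Without the 5 most abundant antisense RNAs the share of counts was 0.417% in Y1F, 0.494% in S2A-S7A, 0.417% in T4A, 0.598% (ALT-P3A), 0.539% (ALT-S5A), 0.448% (ALT-P6A), 0.534% in set 2 and 0.388% in set 1. The causes were not tested.

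Leaving out 1 library at a time gave 32 to 78 higher for ALT-P3A over set 2 (78 without set 2 replicate 5) and 16 to 39 over both sets, 84 to 158 higher for WT18 over set 1, 64 to 123 over set 2 and 4 to 11 lower than both. In the direct contrasts it gave 4 to 10 higher and 27 to 75 lower for S2A-S7A over S2A, 43 to 80 higher for ALT-P3A over ALT-P6A, and 0 to 1 higher and 0 to 3 lower for ALT-P6A over ALT-S5A. The S2A count against set 1 stayed between 232 and 257, and that against both sets between 160 and 178.

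With the replicate number as a block, ALT-P6A over ALT-S5A gave 17 lower, and S2A-S7A over S2A 12 higher and 65 lower. The block moved no other count by over 1.5 times. No paired analysis was possible for set 2, because its numbers are 4 to 6, or for WT18, because its libraries are of 2 kinds. Depth limits the lowest class, where a library holds few counts of an RNA.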
